A study of Rattus norvegicus with 6 samples.

Results

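Proteasome subunit genes were compared between the kidneys of Dahl salt-sensitive (S) rats and of congenic rats on the Dahl S background. Members were all probe sets of the array whose single gene symbol started with Psma, Psmb, Psmc, Psmd, Psme or Psmf followed by a digit. This gave 56 of 31099 probe sets. Of these, 54 stood for 40 genes of the proteasome, its regulators and its assembly chaperones. The other 2, for Psmc3ip and Psme3ip1, matched by name only, since these genes encode no proteasome subunit, and were left out of the counts. A further 6 probe sets listed several symbols and were not used, so Psmb6 and Psme3 are not represented here.

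S rats become hypertensive when fed salt, and the congenic strain carries an R strain segment of chromosome 9 on the S background. All animals were males aged 53 days that had eaten a diet with 2% salt since weaning at 30 days. Each strain had 6 rats, and kidney RNA of 2 rats was pooled for each of 3 Affymetrix Rat Genome 230 2.0 arrays. The labels do not say what part of the kidney was taken, and in such tissue RNA fewer cells of a type and less RNA per cell cannot be told apart.

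The proteasome is the protease that degrades proteins tagged with ubiquitin. Its 20S core is a barrel of alpha rings, which gate the entrance, and beta rings, which hold the cutting sites. The 19S cap binds ubiquitin chains, removes them and threads the substrate into the core with a ring of ATPases. Interferon gamma induces a second set of catalytic beta subunits, Psmb8, Psmb9 and Psmb10, which replace Psmb5, Psmb6 and Psmb7 in newly made particles, together with Psme1 and Psme2, the subunits of the PA28 activator. This form, the immunoproteasome, generates peptides for MHC class I. When proteasome activity falls, the transcription factor Nfe2l1 raises the genes of the constitutive subunits together.

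Proteasome transcripts did not differ detectably between the strains. Signals were compared on the log2(signal + 16) scale with limma, with 1 probe set per gene, the one with the highest mean. A log2 fold change is congenic over S throughout. Of the 40 genes, 18 were higher and 22 lower in congenic kidneys by sign alone, the median log2 fold change being -0.013 and a range of -0.18 to 0.092. Over all 18625 tested probe sets 48.8% were positive and the median was -0.0034. No member passed limma's adjusted threshold of 0.05 (0 of 49 tested member probe sets), and neither did any other probe set (0%). The test without moderation of the variance called 0 as well. The smallest adjusted p among the 40 genes was 0.750. At an unadjusted p under 0.05 there were 2 genes, both lower in congenic kidneys, or 5% of the 40, where all tested probe sets gave 6.61% (3.53% lower and 3.09% higher). The groups did not overlap for 5 genes, 4 lower and 1 higher, or 12.5% of the 40. Among all tested probe sets 12.5% did not overlap, 6.79% lower and 5.74% higher, so the members stood at the background.

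The error of these values was small, so the intervals bound how far each gene's signal on the probe set used could have differed. Standard errors of the log2 fold changes had a median of 0.066 for the 40 genes and of 0.10 for all tested probe sets. For 38 of the 40 genes (95%) the 95% interval lay within a 1.3-fold change either way, against 63.9% of all tested probe sets. For all 40 it lay within 1.5-fold, against 92.7%. The exceptions to the narrower bound were Psmd9 and Psmb8. Some lists read below, with 1 probe set per gene, also had a high share within 1.3-fold. It was 94.1% for assembly and associated factors, 88.9% for leukocyte markers, 85.7% for ubiquitin genes and 81.8% for p97 and transcription. The interferon list had 41.2%, kidney markers 61.5% and the remaining tissue marker lists 0% to 33.3%. Members were the brightest probe set of each gene, whereas all tested probe sets include dimmer ones. Dimmer probe sets of the members could exceed the narrower bound. The 95% interval was -0.50 to 0.29 for the dimmest tested probe set of Psmd14. For the second probe set of Psmd9 it was -0.24 to 0.48. The shares within 1.3-fold and 1.5-fold were computed with the main settings only. These bounds were chosen after the values had been seen, and they hold gene by gene, with no allowance for 40 intervals.

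**Figure D1:**
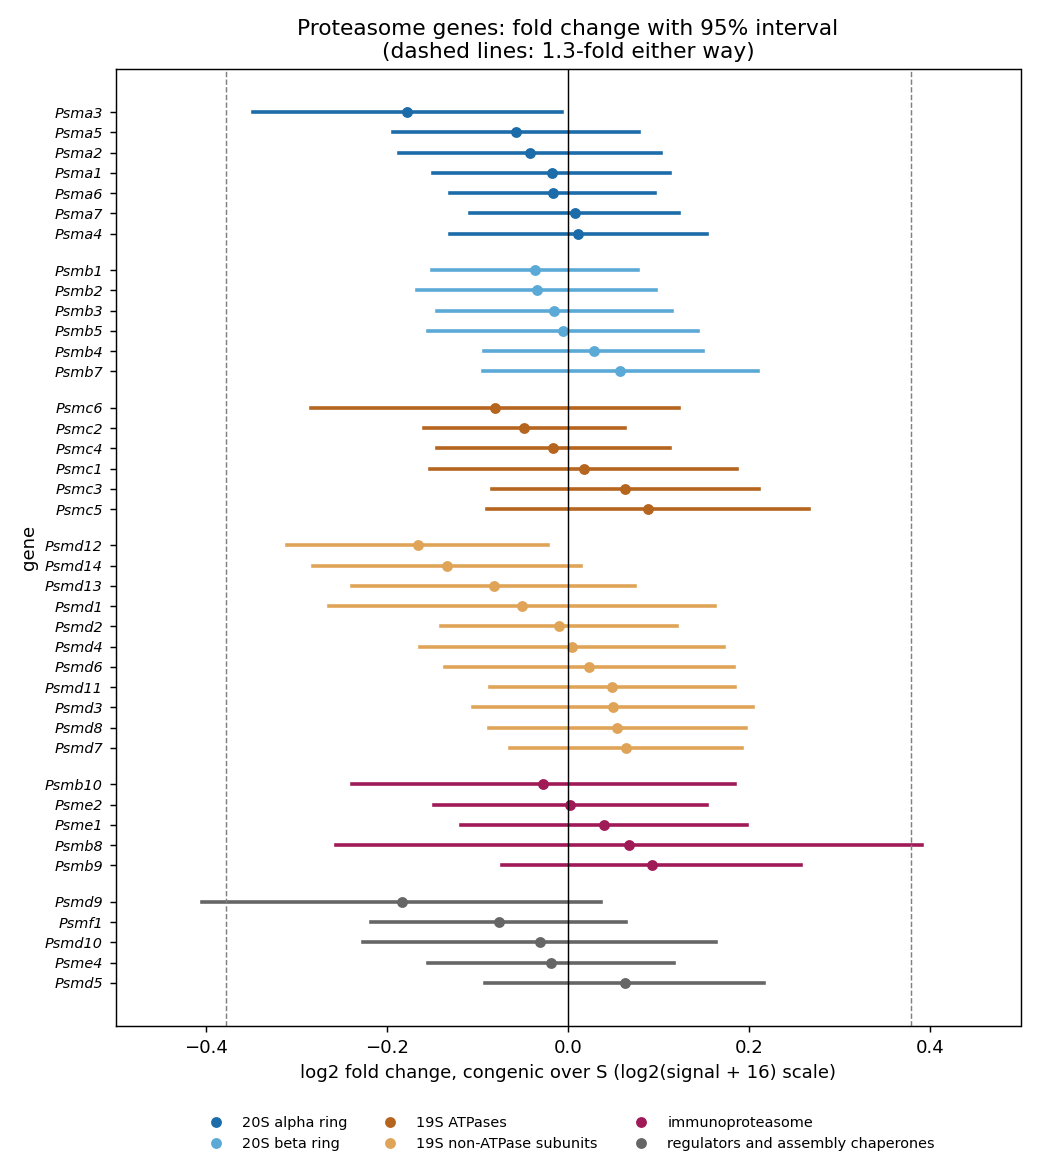
Log2 fold change (congenic over S, x axis) of each of the 40 proteasome genes (y axis), grouped by role, with points for the estimate and bars for limma's 95% interval, n = 3 arrays per strain. Dashed lines mark a 1.3-fold change either way, and the bars of Psmd9 and Psmb8 cross them.

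The alpha ring of the 20S core had 7 genes, of which 2 were positive and 5 negative, with a median log2 fold change of -0.018. Psma3 stood lowest. Its signal was 333, 319 and 328 in the S pools and 287, 264 and 311 in the congenic pools. Every congenic array lay below every S array, and the log2 fold change was -0.18 (SE 0.077, 95% interval -0.35 to -0.0071), with limma adjusted p = 0.750. Psma5 measured 792, 858 and 851 in the S pools and 839, 788 and 775 in the congenic pools, a log2 fold change of -0.057 (SE 0.061). Psma2 measured 1079.8, 1055 and 1063 in the S pools and 1009, 972 and 1130.3 in the congenic pools, with a log2 fold change of -0.042 (SE 0.065). The groups overlapped for both. The remaining alpha subunits, Psma1, Psma4, Psma6 and Psma7, had log2 fold changes between -0.018 and 0.011. Whether alpha subunits differed among themselves was not tested.

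The beta ring had 6 constitutive genes with values, 2 positive and 4 negative, and a median log2 fold change of -0.010. Psmb5 and Psmb7 carry catalytic sites. Psmb5, the chymotrypsin-like subunit, measured 1137, 1299 and 1326 in the S pools and 1230.1, 1290.4 and 1219.6 in the congenic pools. S replicate 1 was the lowest of the 6 arrays, and the log2 fold change was -0.0055 (SE 0.067, 95% interval -0.15 to 0.14). Psmb7, the trypsin-like subunit, measured 691, 765 and 781 in the S pools and 746, 762 and 821 in the congenic pools, and S replicate 1 was again the lowest. Its log2 fold change was 0.058 (SE 0.068, 95% interval -0.094 to 0.21). Of the structural beta subunits, Psmb1 had a log2 fold change of -0.036 and Psmb2 of -0.035, and Psmb3 and Psmb4 were at -0.015 and 0.028. The intervals of all 6 lay within 1.3-fold.

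The ATPases of the 19S cap, which unfold the substrate, had 3 of 6 genes positive and a median log2 fold change of 0.00061. Psmc5 measured 474, 538 and 525 in the S pools and 554, 496 and 589 in the congenic pools, the highest log2 fold change of the ATPases at 0.088 (SE 0.080, 95% interval -0.089 to 0.27). Psmc3 had a log2 fold change of 0.063 and Psmc2 of -0.048. Psmc1 and Psmc4 were at 0.017 and -0.016, and Psmc6 was the lowest at -0.080 (SE 0.091). All 6 had overlapping groups.

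The other 19S subunits, 11 genes, divided into 6 positive and 5 negative, with a median log2 fold change of 0.0044. Psmd12, a scaffold subunit of the lid, had the smallest p of all proteasome genes. It measured 613, 554 and 553 in the S pools and 503, 519 and 504 in the congenic pools. The groups did not overlap, although the gap between the lowest S array and the highest congenic array was smaller than the range of the S arrays. The log2 fold change was -0.17 (SE 0.065, 95% interval -0.31 to -0.022), with limma adjusted p = 0.750.

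Psmd14, the lid enzyme that removes ubiquitin chains from the substrate, measured 529, 553 and 548 in the S pools and 497, 462 and 523 in the congenic pools, also without overlap. Its log2 fold change was -0.13 (SE 0.066, 95% interval -0.28 to 0.014), with limma adjusted p = 0.783. Its partner Psmd7, which forms a dimer with it, had the opposite sign. Psmd7 measured 639, 671 and 676 in the S pools and 689, 710.0 and 679 in the congenic pools, again without overlap, with a log2 fold change of 0.064 (SE 0.058, 95% interval -0.065 to 0.19). On the probe sets used, 3 of these 11 genes were thus without overlap, 2 lower and 1 higher. Among all tested probe sets 12.5% were without overlap, 6.79% lower and 5.74% higher. Psmd13, another lid subunit, had a log2 fold change of -0.082 (SE 0.070).

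Psmd1, the large scaffold of the base, was the only proteasome gene with values on chromosome 9, the chromosome that carries the introgressed segment. Its place relative to that segment was not analysed here. It measured 354, 293 and 289.9 in the S pools and 272, 322 and 308 in the congenic pools. S replicate 1 was the highest array and congenic replicate 1 the lowest, and the log2 fold change was -0.051 (SE 0.096, 95% interval -0.26 to 0.16), with limma adjusted p = 0.935. The ubiquitin receptor Psmd4 and the base scaffold Psmd2 had log2 fold changes of 0.0044 and -0.0099. Psmd3, Psmd6, Psmd8 and Psmd11 lay between 0.024 and 0.054.

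The immunoproteasome genes were examined apart. Interferon-responsive genes carry interferon-stimulated response elements in their promoters, to which factors of the IRF family bind. RefSeq promoters of GRCr8, from 250 bases before to 50 bases after the gene start, were found for 36 of the 40 genes (Psma7, Psmd6, Psmd12 and Psmd14 had none). The element was searched on both strands as 2 copies of GAAA with any 2 bases between them. It was found for 3 of the 5 immunoproteasome genes, 3 of the 31 other genes and 3.92% of all 33469 promoters. The matches of Psmb8, Psmb10 and Psme2 are shown with up to 10 flanking bases on each side, 5′ to 3′ along the gene's strand, with the match, which reads in either orientation, in capitals. Psmb10 held 2 matches, of which the one nearer the start is given.
Psmb8, GRCr8 chr20:4657016-4657045, minus strand: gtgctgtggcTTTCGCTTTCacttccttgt
Psmb10, GRCr8 chr19:50743290-50743319, minus strand: agtggggggtGAAAGCGAAAgtaggaagcg
Psme2, GRCr8 chr15:33052785-33052814, minus strand: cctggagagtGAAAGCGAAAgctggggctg
These matches began 4, 17 and 53 bases before the respective starts. The other 3 genes with a match were Psma4, Psmb3 and Psmd7. A match is a description of the letters and shows no binding.

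Of the 5 immunoproteasome genes 4 were positive by log2 fold change (median 0.040), and 0 of 5 had an unadjusted limma p under 0.05. Psmb9, the inducible counterpart of Psmb6, measured 206, 212 and 208 in the S pools and 225, 211 and 234 in the congenic pools. Congenic replicates 1 and 3 lay above all S arrays and congenic replicate 2 among them, and the log2 fold change was 0.092 (SE 0.074, 95% interval -0.073 to 0.26), the highest of the 40 genes. Psmb8, the inducible counterpart of Psmb5, measured 109, 127 and 130.1 in the S pools and 163, 99.97 and 129 in the congenic pools. The congenic arrays held both the highest and the lowest of its 6 values, and the log2 fold change was 0.068 (SE 0.15, 95% interval -0.26 to 0.39), the widest interval of all proteasome genes.

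Without congenic replicate 1 the log2 fold change of Psmb8 was -0.087, and without congenic replicate 2 it was 0.22. Congenic replicate 1 was also the array with liver transcripts, where 9 liver markers summed to a signal of 10288, against 169.9 to 247 on the other 5 arrays. Its summed signal of 15 measured leukocyte markers was the highest too, at 6567, where the S arrays had 5856 to 6245 and the other congenic arrays 5927 and 6084. Cd74 (2912) and Lyz2 (2590), named after their values were seen, contributed most to that sum. Both were highest on this array, as were Adgre1 and Ptprc, whereas Cd68, Csf1r, Cd14, Cd3g and Itgax were highest on other arrays. Of the leukocyte list, the T cell markers Cd3e, Cd4 and Cd8a, the B cell marker Cd79b, and Itgam and Nkg7 lay below the filter on dim probe sets. Their part in the Psmb8 value was not tested.

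Psmb10, the inducible counterpart of Psmb7, measured 139, 122 and 146 in the S pools and 141, 123 and 133 in the congenic pools, a log2 fold change of -0.027 (SE 0.095, 95% interval -0.24 to 0.18). The PA28 subunit Psme1 measured 852, 998 and 992 in the S pools and 939.6, 1004 and 973 in the congenic pools, a log2 fold change of 0.040 (SE 0.071, 95% interval -0.12 to 0.20). Its partner Psme2 measured 558, 601 and 563 in the S pools and 603, 536 and 587 in the congenic pools, a log2 fold change of 0.0026 (SE 0.068, 95% interval -0.15 to 0.15). The groups overlapped for all 3, and the intervals of Psmb9, Psmb10, Psme1 and Psme2 lay within 1.3-fold.

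**Figure D2:**
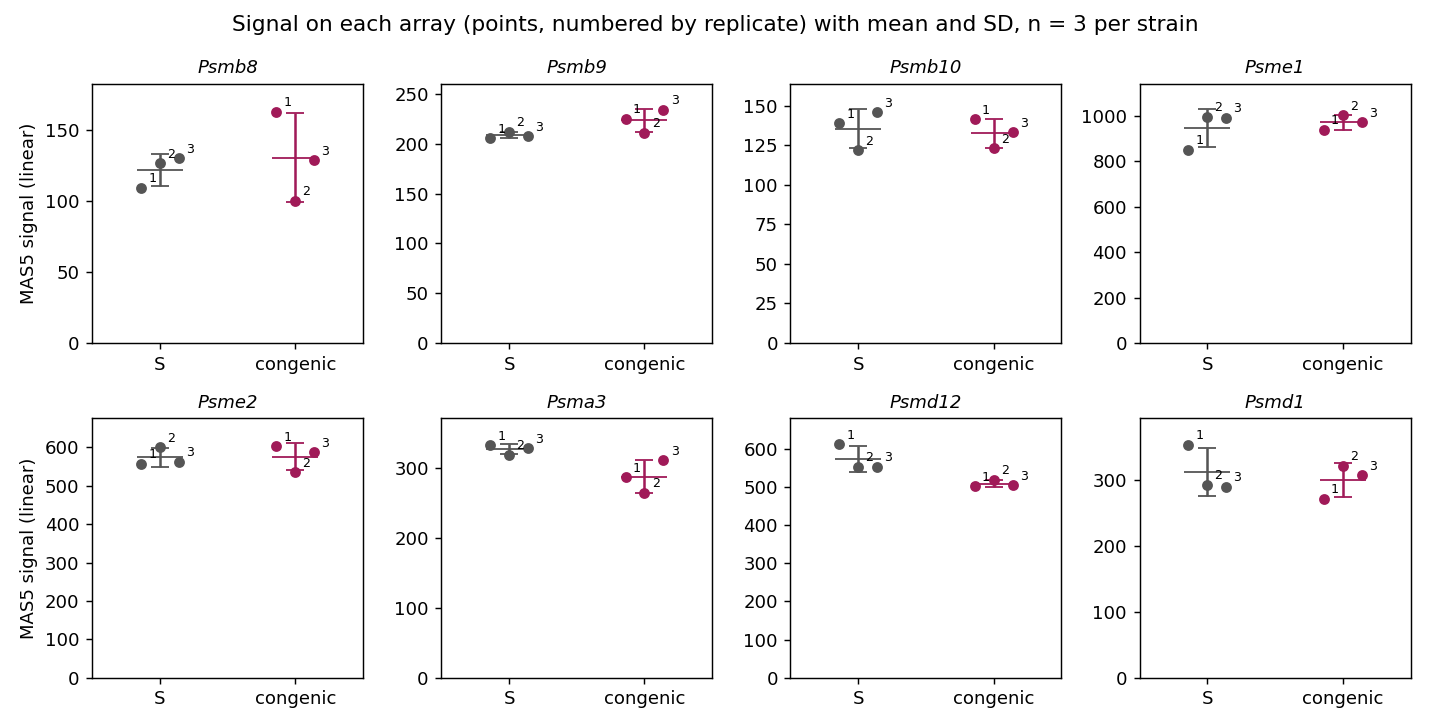
Linear MAS5 signal (y axis) of the 5 immunoproteasome genes and of Psma3, Psmd12 and Psmd1 in S and congenic arrays (x axis), with 1 numbered point per array and the mean with SD (n = 3 per strain). The congenic points of Psmb8 run from 99.97 to 163, around all 3 S points, whereas those of Psma3 and Psmd12 lie below the S points.

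The inducible subunits were also set against their constitutive counterparts within each array, since a shift from one form to the other would change this ratio. The ratio compares different probe sets, so only its difference between arrays is read. The log2 ratio of Psmb8 over Psmb5 was -3.20, -3.21 and -3.20 in the S pools and -2.80, -3.49 and -3.09 in the congenic pools. The S arrays were nearly equal and the congenic arrays spread on both sides of them. The difference was 0.073 on the log2 scale (exact permutation test over arrays, 2-sided, p = 0.7). The log2 ratio of Psmb10 over Psmb7 was -2.19, -2.50 and -2.30 in the S pools and -2.28, -2.48 and -2.49 in the congenic pools, a difference of -0.085 (exact permutation test, 2-sided, p = 0.7). Over the 2 pairs the adjusted p was 0.7 for each, and 3 against 3 arrays cannot give a p under 0.1.

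Among the regulators and assembly chaperones, 1 of 5 genes was positive, with a median log2 fold change of -0.031. Psmd9, a chaperone of 19S base assembly, measured 144, 139 and 145 in the S pools and 114, 117 and 143 in the congenic pools. Congenic replicates 1 and 2 lay below all S arrays and congenic replicate 3 among them. Its log2 fold change of -0.18 (SE 0.099, 95% interval -0.40 to 0.036) was the lowest of the 40 genes (limma adjusted p = 0.785), and its second, dimmer probe set was at 0.12. Psmf1, the proteasome inhibitor PI31, measured 362, 357 and 352 in the S pools and 345, 338 and 331 in the congenic pools, without overlap, a log2 fold change of -0.077 (SE 0.063, 95% interval -0.22 to 0.064). The base chaperone Psmd5 had a log2 fold change of 0.063, the chaperone gankyrin (Psmd10) of -0.031 and the activator PA200 (Psme4) of -0.019.

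Different probe sets of a gene give a second reading of that gene, and whether they detect the same transcript forms was not examined. Of the 54 probe sets 49 passed the filter on low signals, a mean of at least 25.6 over all 6 arrays, and the other 5 had no value above 24.7. Each of the 40 genes kept at least 1 probe set. Of the 6 genes with several tested probe sets, Psmd14 was negative in all 3 (-0.13 to -0.048) and Psmd7 positive in both (0.064 and 0.083). For Psmc6, Psmd11, Psmd9 and Psme4 the sign differed between probe sets, over ranges of -0.080 to 0.0035, -0.070 to 0.049, -0.18 to 0.12 and -0.019 to 0.071. The second probe set of Psmd11, at -0.070, measured 916, 908 and 904 in the S pools and 881, 874 and 843 in the congenic pools, without overlap. On all other tested probe sets not used for the gene, the groups overlapped.

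Across single arrays the members moved little. The deviation of each gene from its own mean over the 6 arrays had a median over the 40 genes of -0.0069, 0.035 and 0.0057 in the S pools and -0.014, -0.028 and 0.011 in the congenic pools, in log2 units. On S replicate 2 the medians of all 6 roles were above 0 (0.017 to 0.040), and it had the lowest signal for 2 of the 40 genes and the highest for 8. Congenic replicate 3 was lowest for 3 genes and highest for 9. S replicate 1 was lowest for 12 and highest for 9, and congenic replicate 2 lowest for 9 and highest for 4. S replicate 1 also had the highest actin 3′ over 5′ signal ratio, a sign of RNA degradation, at 9.42 against 6.15 to 8.13 elsewhere, and the part of this in the members' values was not tested. The immunoproteasome medians spread most, from -0.097 on congenic replicate 2 to 0.069 on congenic replicate 1. The within-group SD had a median of 0.066 over the 40 genes and 0.12 over all tested probe sets.

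**Figure D3:**
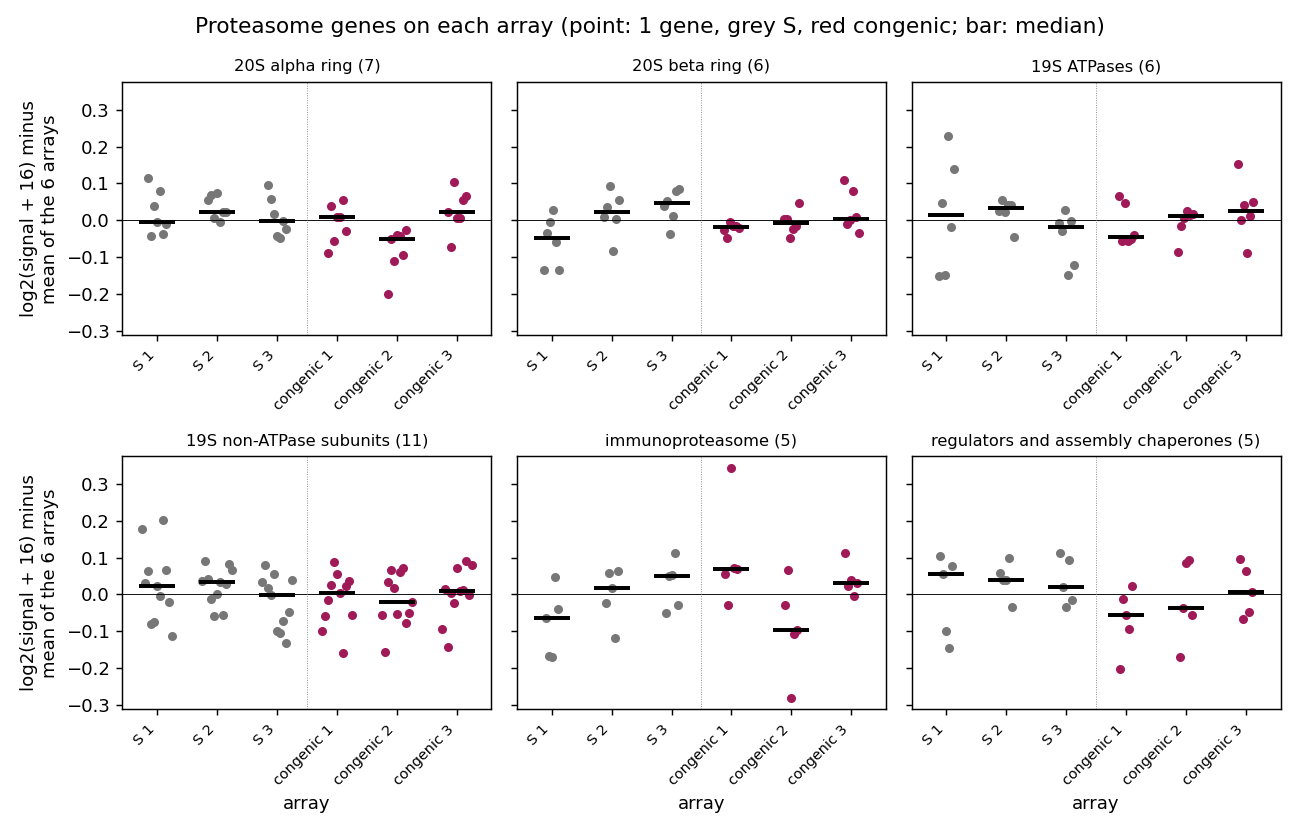
Deviation of each proteasome gene from its own mean over the 6 arrays (y axis, log2(signal + 16) units) on each array (x axis), in 6 panels by role, with 1 point per gene, grey for S and red for congenic, and a black bar for the median. Medians of the 6 roles stay between -0.097 and 0.069, and the immunoproteasome panel has both ends of that range.

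Genes around the proteasome were read from companion lists. Of 17 tested assembly and associated factors 6 were positive, with a median log2 fold change of -0.0071, and 0 had an unadjusted limma p under 0.05. The smallest p values belonged to Uchl5, a deubiquitinase of the cap (-0.15 (SE 0.079)), and the shuttle factor Ubqln1 (0.11 (SE 0.063)). The core assembly factor Pomp, named here after its value was seen, had a log2 fold change of -0.0015. Of 11 genes of the p97 segregase and of the control of subunit transcription 5 were positive, with a median of -0.011 and again 0 at an unadjusted limma p under 0.05. Ngly1, the deglycosylase that activates Nfe2l1, measured 647, 657 and 676 in the S pools and 623, 624 and 565 in the congenic pools, without overlap, a log2 fold change of -0.13 (SE 0.063). Sel1l, an adaptor of the ubiquitin ligase complex of the endoplasmic reticulum, was at -0.15 (SE 0.10).

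Nfe2l1 itself, named after its values were seen, measured 161, 218 and 221 in the S pools and 215, 230.0 and 217 in the congenic pools. S replicate 1 was the lowest array and the groups overlapped, with a log2 fold change of 0.14 (SE 0.11, 95% interval -0.11 to 0.39). Nfe2l1 acts through antioxidant response elements, searched here as TGACNNNGC on both strands. The element was present in 7 of the 36 promoters (19.4%) and in 12.1% of all 33469 promoters, and in none of the 5 immunoproteasome promoters. Psma3, the alpha subunit with the lowest log2 fold change, and the catalytic Psmb5 each held 1 match, given in capitals with its flanks.
Psma3, GRCr8 chr6:95219727-95219755, plus strand: tctgtggcctGCCGGGTCAgcaccatgag
Psmb5, GRCr8 chr15:32047421-32047449, minus strand: cgtgaagctgTGACGTCGCggcgttgccc
The matches began 12 and 60 bases before the starts, and the other genes with a match were Psmb2, Psmd1, Psmd3, Psmd9 and Psme4. Log2 fold changes of the 7 ran from -0.18 to 0.049. The CCAAT box, common in such promoters, was present in 19 of the 36 (52.8%) and in 37.5% of all promoters.

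Of the 7 tested genes of ubiquitin activation and conjugation 3 were positive, with a median of -0.0059. Ube2n, the enzyme that builds chains linked through lysine 63 of ubiquitin, measured 800.1, 805 and 637 in the S pools and 526, 668 and 544 in the congenic pools. S replicate 3 lay below congenic replicate 2, so the groups overlapped, and the log2 fold change was -0.36 (SE 0.11, 95% interval -0.60 to -0.11), with limma adjusted p = 0.710. The mean of all its tested probe sets gave -0.19, and congenic replicate 2 alone against the S arrays -0.15. The ubiquitin-activating enzyme Uba6 was at -0.13 (SE 0.072) and the main activating enzyme Uba1 at -0.0059, the latter named after its value was seen.

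The interferon and antigen processing genes were read with less precision than the proteasome genes, with a median standard error of 0.12 against 0.066. Of 17 tested genes 10 were positive, with a median log2 fold change of 0.077 and a range of -0.29 to 0.30. None passed limma's adjusted threshold, and 4 (23.5%) had an unadjusted p under 0.05, 3 higher and 1 lower, where all tested probe sets gave 6.61% (3.09% higher and 3.53% lower). Whether this list differed from the proteasome genes was not tested. Irf1, a transcription factor that binds the response element shown above, measured 174, 184 and 190.2 in the S pools and 247, 207 and 233 in the congenic pools, without overlap, a log2 fold change of 0.30 (SE 0.086, 95% interval 0.10 to 0.49), with limma adjusted p = 0.710. The chemokine Cxcl10 measured 94.8, 106 and 91.8 in the S pools and 78.6, 74.1 and 77.7 in the congenic pools, without overlap in the other direction, a log2 fold change of -0.29 (SE 0.096, 95% interval -0.50 to -0.077), with limma adjusted p = 0.730. The other 2, named after their values were seen, were B2m (0.11), the light chain of MHC class I, and Oas1a (0.30). The peptide transporter genes Tap1 and Tap2, neighbours of Psmb9 and Psmb8 on chromosome 20, also named afterwards, were at 0.15 and 0.074, with overlapping groups.

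**Figure D4:**
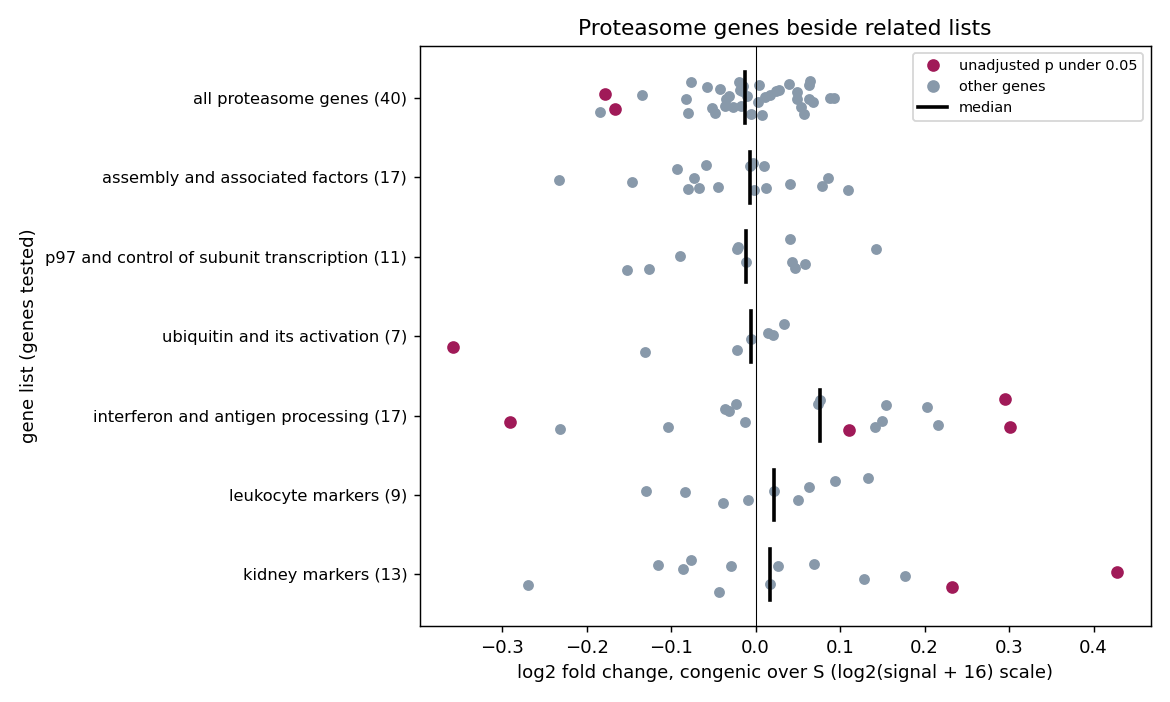
Log2 fold change (congenic over S, x axis) of each tested gene in the proteasome and in related lists (y axis, number of genes in brackets), with red points for an unadjusted limma p under 0.05, grey points for the rest and a black bar for the median. The 40 proteasome genes lie between -0.18 and 0.092, and the 17 interferon and antigen processing genes between -0.29 and 0.30.

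The arrays as a whole were alike in scale, with median signals of 42.9 to 46.01. Of the 14 kidney markers 13 were tested. Those summed to signals of 33508 to 34590 on S arrays and 34694 to 35131 on congenic arrays, without overlap. Bright genes such as Umod, Slc34a1 and Lrp2 contributed most to this sum. Of the 13, 2 (15.4%) had an unadjusted p under 0.05, against the 6.61% of all tested probe sets. They were the water channels of the collecting duct Aqp3 (log2 fold change 0.43 (SE 0.11)) and Aqp2 (0.23 (SE 0.070)), named after their values were seen, both higher in congenic kidneys without overlap and with limma adjusted p = 0.710. Adrenal transcripts stood out on congenic replicate 3, where 6 markers summed to 7719, against 146 to 243 on the other 5 arrays. Urothelium markers were negative in 4 of 4 tested genes, with a median log2 fold change of -0.29. Of these, 2 (50%) had an unadjusted p under 0.05, where 3.53% of all tested probe sets were lower at that level. The summed signal of the 5 measured, among them Upk2 below the filter, was 494 to 542 on S arrays. On congenic arrays it was 401 to 470.2, without overlap. Fat markers were also negative in 4 of 4 tested genes, with a median of -0.21 and 0 at an unadjusted p under 0.05. The 5 measured, among them Lep below the filter, summed to 1297 to 1659 on S arrays and 989 to 1517 on congenic arrays. The 3 tested blood markers had a median of 0.0021. The part of these tissues in the proteasome values was not tested. Congenic replicate 2 had neither the high liver nor the high adrenal sum. Its adrenal sum of 243 was still the highest apart from congenic replicate 3. The adrenal marker Akr1b7, named afterwards, was at 101 there, against 18.2 to 32.2 on the S arrays. Against congenic replicate 2 alone, the medians were -0.049 for the 20S core, -0.015 for the 19S cap and -0.096 for the immunoproteasome. They had been -0.017, 0.0044 and 0.040 with all arrays.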

How the data were processed

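The authors deposited linear intensities computed with MAS5, per the submitters' processing notes. Its version and target are not given in the sources used here. Trimmed of 2% at both ends, signals averaged 150.05 on the arrays, so they share one scale and a change of most transcripts together would be hidden. Of 31099 probe sets, 20826 had 1 gene symbol, 436 several and 9780 none, and 20758 of the first were matched by gene ID to RefSeq (GRCr8), used for symbols, chromosomes and promoters.

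Left out were 57 control probe sets and 12417 below the 40th percentile of the mean signal. The other 18625 were tested in R 4.3.3 by limma 3.58.1 (lmFit, eBayes with an intensity trend) on log2(signal + 16), which understates folds of dim probe sets, 2-sided, with the Benjamini-Hochberg threshold at 0.05. On simulated data with 200 changed among 18625 probe sets, 0% of 1.3-fold changes were recovered, 51.5% at 1.5-fold, 90% at 2-fold and 97% at 3-fold. The 3 arrays per strain limit the precision. The pools came from different rats.

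Genes described singly were the 5 immunoproteasome genes, the 3 with the smallest p in each other role, the 2 extremes in each direction, those on chromosome 9 and the 2 with the smallest p of each of the 4 lists around the proteasome (assembly, p97 and transcription, ubiquitin, interferon). Marker lists of tissues were given as counts and sums. Further genes were given to complete a role or are marked as named afterwards. The members and lists were chosen with earlier results of these data known. Alternatives covered the pseudocount, filter, scaling, variance moderation, array weights, replicate block, probe set choice and arrays left out.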

Additional observations from a re-analysis of the deposited data

How the results depend on the processing

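No proteasome probe set passed limma's adjusted threshold under any alternative run. The number of proteasome genes at an unadjusted p under 0.05 was 2 (Psma3 and Psmd12) with all arrays and 0 to 3 with each array left out in turn. It was 0 without S replicate 1 or congenic replicate 1, 1 without S replicate 2, S replicate 3 or congenic replicate 2 (Psmd12 each time), and 3 without congenic replicate 3 (Psma3, Psmd14 and Psmd9). Without an intensity trend it was 0, with array weights it was 3 (Psmd14 added), and without moderation of the variance it was 2, Psmd12 and Psmf1. Against congenic replicate 2 alone it was 2, Psma3 and Psmd14. Over all probe sets limma called 0, except for 1 without congenic replicate 2 (0 to 1 over the arrays left out). The whole-array share with p below 0.05 before adjustment also changed with the setting, from 6.61% in the main run. With an array left out it ran from 4.79% (S replicate 2) to 9.16% (S replicate 3). Array weights gave 8.96%, no intensity trend 6.48% and no moderation 6.28%. The counts of proteasome genes were not tested against these shares. With each array left out, the median log2 fold change ran from -0.024 to 0.0085 for all proteasome genes, -0.036 to 0.029 for the 19S cap and -0.031 to 0.079 for the immunoproteasome. Against congenic replicate 2 alone the medians of the 20S core, 19S cap and immunoproteasome were -0.049, -0.015 and -0.096. The cause of these shifts was not tested.

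Several log2 fold changes turned sign, none of which limma called under any setting. With an array left out, ranges crossed 0 for Psmb8 (-0.087 to 0.22), Psmb10 (-0.093 to 0.022), Psme1 (-0.033 to 0.079), Psme2 (-0.031 to 0.052), Psmd1 (-0.0995 to 0.038), Psmb2 (-0.062 to 0.0034) and Psma2 (-0.10 to 0.0028). With array weights Psmb8 was at -0.013, Psmb10 at 0.0015, Psme2 at -0.037 and Psmd1 at 0.0044. Against congenic replicate 2 alone Psmb8 was at -0.25, Psme2 at -0.096, Psmc5 at -0.042 and Psmd1 at 0.046. With the mean of its probe sets Uba6 was at 0.015, and Ube2n, at -0.36 otherwise, was at -0.19.

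Deviations of same-numbered arrays correlated at 0.037, 0.014 and 0.021, and those of other pairs at -0.046 to 0.038. S replicates 1 and 2 correlated best with the congenic array of the same number, and S replicate 3 with congenic replicate 2. Correlations this small cannot decide whether the shared replicate numbers paired the arrays. With the replicate block limma called 0 probe sets (smallest adjusted p 0.0934), and 2 proteasome genes, Psma3 and Psmd12, had an unadjusted p under 0.05. The 5 proteasome probe sets below the filter on dim signals were tested only without the filter. Of the other lists, Uchl5, Ubqln1, Ngly1, Sel1l, Ube2n, Uba6, Irf1 and Cxcl10 were run under the alternatives, and the other genes and the medians of those lists were not.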
